A study of Mus musculus with 12 samples.

Results

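The 10 genes described here are 4 fibroblast growth factor (FGF) receptors and 6 FGF ligands of the mouse lung, namely Fgfr1, Fgfr2, Fgfr3, Fgfr4, Fgf1, Fgf2, Fgf7, Fgf9, Fgf10 and Fgf18. They were chosen by name, and all 10 were found by Ensembl identifier among the 56262 genes of the lung count table and the 54532 genes of the table of sorted cells. All animals were C57BL/6 mice. Lung tumours and adjacent lung tissue came from the same 3 mice, numbered 102, 217 and 224, which carried a Med23 knockout in T cells and were 18 months old, so both lung groups share the deletion. Alveolar type 2 (AT2) cells, which make surfactant in the alveolus, were taken by sorting from mice 6 months old: 3 with the same knockout (175, 179 and 191) and 3 of wild type (176, 177 and 190). Med23 is a subunit of the Mediator complex, which links transcription factors to RNA polymerase II. The labels name neither the driver of the deletion nor the gate of the sort.

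FGFs are secreted proteins that bind receptor tyrosine kinases together with heparan sulphate, and the bound receptor signals through the adaptor Frs2 to RAS and the MAP kinases. Splicing gives the first 3 receptors an epithelial (IIIb) and a mesenchymal (IIIc) form. In the lung, Fgf7 and Fgf10 come mostly from mesenchymal cells and act on the IIIb form of Fgfr2 in epithelium, while Fgf9 comes mostly from mesothelium and embryonic epithelium and acts mainly on mesenchyme. Fgf10 with Fgfr2 is required for the lung buds to branch, and Fgf18 takes part in alveolar growth. Counts per gene do not separate the IIIb and IIIc forms.

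Levels are given in CPM, which divides the counts of a gene by the size of its library, with TMM scaling within each table. Log2 fold changes are positive where the tumour or the knockout was higher, and ± marks their standard error. A gene passed a comparison if its Benjamini-Hochberg adjusted p in edgeR's quasi-likelihood test, adjusted over every gene tested, was under 0.05. Total counts ran from 65163100 to 77951014 per lung library and from 15943084 to 18913242 per AT2 library. Both libraries of mouse 217 stood apart in their trend with exon length. For each gene, the deviation of a library from the gene's mean over all 6 libraries of its table was taken. In mouse 217 it fell with exon length (Spearman rho across genes of -0.246 in the tumour and -0.221 in the adjacent tissue). The other lung libraries gave 0.0573 to 0.207. That mean spans both groups, so these values also carry any group difference. Among AT2 libraries the trend was -0.173 in wild-type 176, -0.219 in wild-type 177 and 0.0965 to 0.31 in the others. The sorted cells carried AT2 markers at a summed 153082.1 to 197185.4 CPM. Of other cell types, alveolar type 1 (AT1) markers summed to 1524.9 to 1967.6 CPM there. Club cell markers summed to 563 to 779 CPM and lipofibroblast markers to 252 to 424 CPM. The lipofibroblast sum came from Plin2 (167 and 131 CPM on average in wild-type and knockout cells) and Lpl (163 and 134 CPM). Pdgfra, of the same list, averaged 0.0578 and 0 CPM. Ciliated markers summed to 39.5 to 68.3 CPM and macrophage markers to 19.7 to 31.6 CPM. Endothelial markers summed to 9.71 to 15.6 CPM and T cell markers to 0.172 to 2.22 CPM. The 12 fibroblast markers summed to 101 to 174 CPM, of which Npnt made up 95.4 to 170 CPM, and Tcf21 and Lum had 0 counts in all 6 libraries, as had the mesothelial gene Wt1.

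In tumours, the mesenchymal ligands Fgf10 and Fgf7 fell to a small fraction of their level in the adjacent lung of the same mice. Fgf10 was 26.2-fold and Fgf7 13.2-fold lower. Fgfr2, the receptor for both, was measured 2.21-fold higher and Fgf9 14.9-fold higher, and neither passed. The other 6 members did not pass either. All 10 members were tested, and 2 passed, both lower. Among the 19995 genes tested, 10% passed, 2.86% higher and 7.18% lower in tumours. The members' median log2 fold change was -0.05, against 0.04 over all genes tested. With libraries scaled by their totals alone the median of all genes moved by -0.22, and higher genes made up 17.6% of all calls in place of 28.5%. No member changed direction under that scaling. All these values come from a fit that does not use the pairing of tissues within mice. A fit with a block for each mouse passed 4 members, Fgfr2 as higher and Fgf7, Fgf10 and Fgfr3 as lower. In that fit 14.9% of all genes passed.

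**Figure D1:**
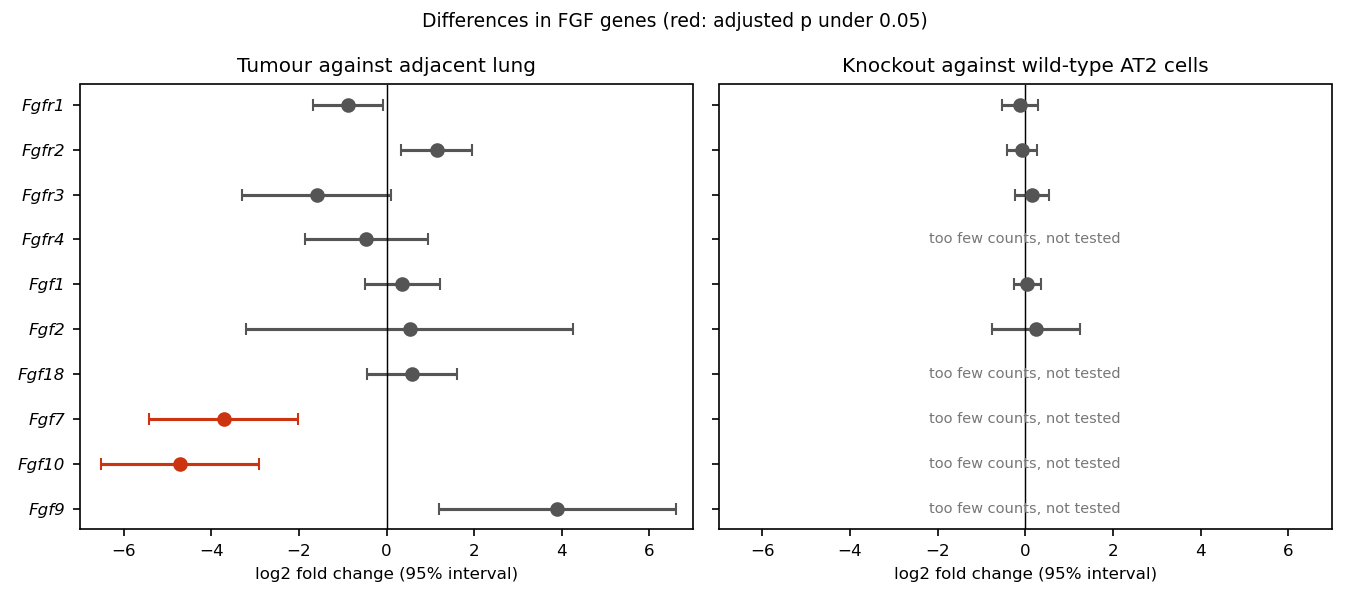
Log2 fold changes of the 10 members with their 95% intervals, for tumour against adjacent lung (left) and knockout against wild-type AT2 cells (right). Fgf7 and Fgf10 (red) passed in the lung comparison, and the 5 members tested in AT2 cells lie close to 0.

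Fgf10 (ENSMUSG00000021732, GRCm38 chromosome 13, 118669791 to 118792115, plus strand) was at 26.8, 8.5 and 5.29 CPM in the adjacent tissue of mice 102, 217 and 224. In the tumours of the same mice it was at 0.554, 0.7 and 0.292 CPM, which rested on 39, 44 and 20 counts. Every tumour lay below every adjacent library. Over all genes tested, groups lay apart in that direction in 18.9% and in the other in 11.6%. The log2 fold change was -4.71 ± 0.78 (adjusted p = 0.0145). Within mice the fall was 48.3-fold in mouse 102, 12.1-fold in mouse 217 and 18.2-fold in mouse 224. Leaving out 1 library at a time kept the adjusted p between 0.021 and 0.0546, and the call was lost without the tumour of mouse 102 (-4.76, adjusted p = 0.0546). It was also lost without both libraries of mouse 217 (-5.28, adjusted p = 0.0523). Without the adjacent library of mouse 102, the highest, the log2 fold change was -3.72, and the gene passed (adjusted p = 0.0409).

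Fgf7, or keratinocyte growth factor (ENSMUSG00000027208, GRCm38 chromosome 2, 126034658 to 126091185, plus strand), was at 20.5, 13.6 and 7.52 CPM in the adjacent tissue of mice 102, 217 and 224. The tumours of these mice held 0.682, 2.05 and 0.423 CPM, from 48, 129 and 29 counts. Again no tumour reached the lowest adjacent library. Its log2 fold change was -3.72 ± 0.74 (adjusted p = 0.0233), and the fall within mice was 30.0-fold, 6.63-fold and 17.8-fold in the same order. The call was lost without the adjacent tissue of mouse 102 (0.0764) or 217 (0.0576) and without the tumour of mouse 102 (0.0807) or 224 (0.0603). In those fits the log2 fold change stayed between -3.73 and -3.3. Without the tumour of mouse 217, the highest, it was -4.7 (adjusted p = 0.0105), as it was without both libraries of that mouse (adjusted p = 0.0372).

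Windows upstream of a RefSeq start of these genes are shown because they are the members that fell together in tumours. The Fgf7 window ends just before the gene record given above. The Fgf10 window lies inside its gene record (118669791 to 118792115), which begins upstream of the RefSeq start. Each is the 250 bases before the start of transcription given by RefSeq on GRCm38.p6, on the plus strand, at chr13:118714449-118714698 for Fgf10 and chr2:126034408-126034657 for Fgf7.
Fgf10: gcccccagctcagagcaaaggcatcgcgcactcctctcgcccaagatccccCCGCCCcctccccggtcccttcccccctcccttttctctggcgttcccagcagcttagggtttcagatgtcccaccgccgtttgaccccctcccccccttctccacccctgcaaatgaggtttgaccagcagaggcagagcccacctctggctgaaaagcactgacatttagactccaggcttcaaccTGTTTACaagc
Fgf7: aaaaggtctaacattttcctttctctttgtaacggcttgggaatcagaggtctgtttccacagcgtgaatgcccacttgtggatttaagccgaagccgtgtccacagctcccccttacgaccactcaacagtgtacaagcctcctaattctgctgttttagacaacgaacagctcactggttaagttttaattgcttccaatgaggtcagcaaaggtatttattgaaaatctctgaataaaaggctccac
Capitals mark matches, on either strand, to any of 6 motifs: the TATA box TATAAA, the GC box GGGCGG, AP-1 TGANTCA, forkhead TGTTTAC, TCF/LEF CTTTGAA and T-box AGGTGTNA. The Fgf10 window holds a GC box on the minus strand, 199 to 194 bases before the start, and a forkhead motif on the plus strand, 11 to 5 bases before the start. No matches overlapped. The Fgf7 window holds none of the 6. Of 32851 such windows of the mouse genome, 32.7% hold the GC box and 3.17% the forkhead motif. The shares for the other motifs are 12.4% for the TATA box, 6.75% for AP-1, 4.46% for TCF/LEF and 2.68% for the T-box. GC content is 61.2% in the Fgf10 window and 43.6% in the Fgf7 window, with a median of 52.4% over all windows. These matches describe the letters of the windows only.

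Markers of fibroblasts, and of several other cell types of the adjacent lung, were lower in the same tumours as Fgf7 and Fgf10. The 12 fibroblast markers summed to between 2829.7 and 3756.8 CPM in adjacent tissue and between 1170 and 2437.2 CPM in tumours. Of the 12, 2 passed, both lower (Npnt and Pi16), and 10 lay apart between the groups in that direction, with a median log2 fold change of -1.81. Over all genes tested, 7.18% passed as lower and 18.9% lay apart in that direction. In the fit with a block for each mouse 6 of the 12 passed, and without 1 library 0 to 5 did, all lower. In bulk tissue, fewer cells of a type and less RNA per cell cannot be told apart. Fgf10 per 1000 CPM of summed fibroblast markers was 1.87 to 7.13 in adjacent tissue and 0.227 to 0.468 in tumours. For Fgf7 the same ratio was 2.66 to 5.45 against 0.28 to 1.37. Neither pair of ranges overlapped, so both ligands were lower relative to this sum as well. The sum is weighted towards abundant matrix genes such as Col1a1, a collagen chain, which was at 296, 305 and 348 CPM in adjacent tissue against 261, 245 and 225 CPM in the tumours. It also holds Fn1, which averaged 530 CPM in adjacent tissue and 795 CPM in tumours (log2 fold change 0.59, adjusted p = 0.571). Dcn averaged 90.6 and 100 CPM. These 2 markers were not lower in tumours, and they add to the sum by which the ligands were divided.

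The picture differed by marker. Tcf21, a transcription factor of resident lung fibroblasts, was at 121, 96.2 and 47.3 CPM in the adjacent tissue of mice 102, 217 and 224 and at 2.83, 19.5 and 2.0 CPM in the tumours (log2 fold change -3.44 ± 0.92, adjusted p = 0.0553). Pdgfra, a receptor of alveolar fibroblasts, went from 448, 149 and 107 CPM to 49.2, 46.2 and 7.86 CPM (-2.77 ± 0.81, adjusted p = 0.073). These 2 markers were set against the ligands after their values were seen. Per CPM of Tcf21, Fgf10 was 0.0883 to 0.221 in adjacent tissue and 0.0359 to 0.196 in tumours, and Fgf7 was 0.141 to 0.169 and 0.105 to 0.241, so both pairs of ranges overlapped. Per CPM of Pdgfra, Fgf10 was 0.0497 to 0.0598 against 0.0113 to 0.0371, which did not overlap, and Fgf7 was 0.0457 to 0.0912 against 0.0138 to 0.0538, which did. Within each mouse, both ligands were lower in the tumour per CPM of Pdgfra. For Fgf7 these values were 0.0457, 0.0912 and 0.0705 in adjacent tissue of mice 102, 217 and 224, against 0.0138, 0.0444 and 0.0538. Per CPM of Tcf21 the direction differed between mice for both ligands. Other lists were lower as well, where 7.18% of all genes tested passed as lower. All 8 endothelial markers passed, with a median log2 fold change of -2.33 and a summed level of 3135.7 to 4747.5 CPM in adjacent tissue against 717 to 725 CPM in tumours. Of 7 smooth muscle and pericyte markers 3 passed (median -1.23, sums of 403 to 1272.1 against 190 to 357 CPM), of 6 ciliated markers 5 (median -5.14, 407 to 683 against 8.11 to 30.2 CPM), and of 5 club cell markers 3 (median -4.14, 16591.9 to 36137.9 against 1218.8 to 2662.3 CPM). Without 1 library these counts were 3 to 8, 0 to 3, 2 to 6 and 2 to 3. The part of fibroblast content, or of any other cell type, in the fall of both ligands was not tested beyond these ratios.

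**Figure D2:**
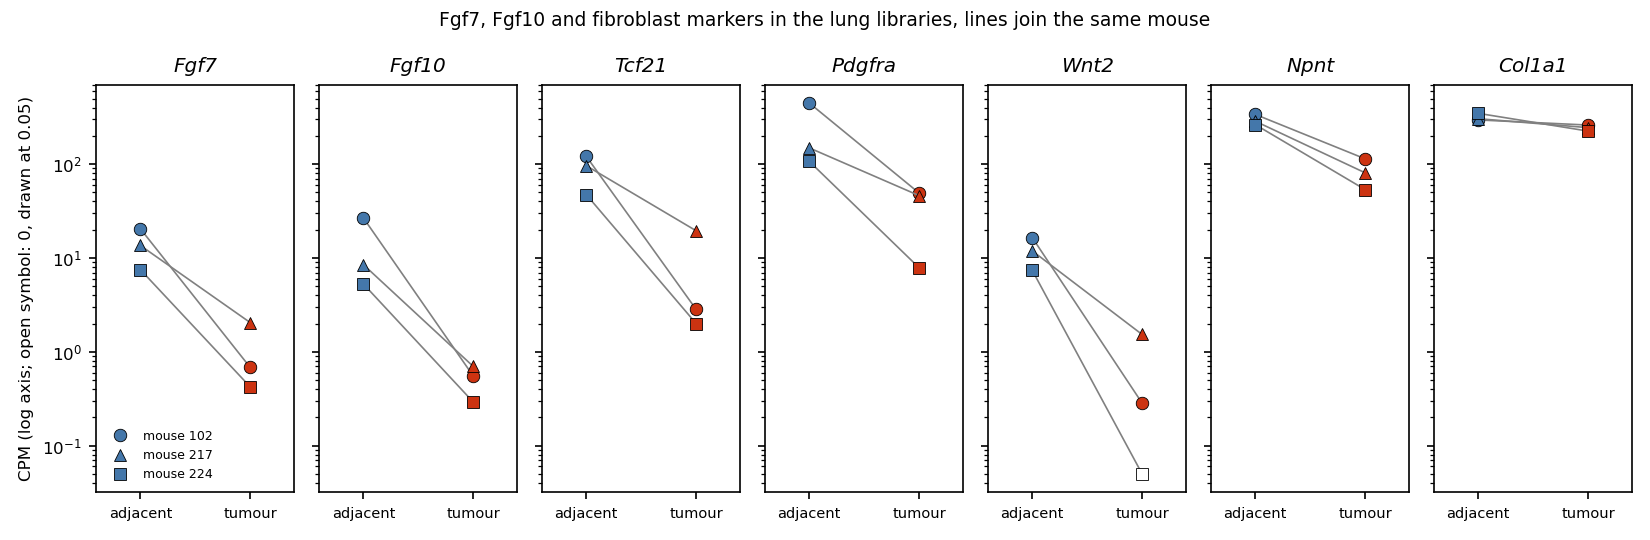
CPM on a log axis of Fgf7, Fgf10 and 5 fibroblast markers in adjacent lung (blue) and tumour (red), with lines joining libraries of the same mouse and an open symbol for 0 counts. Fgf7, Fgf10, Tcf21, Pdgfra and Wnt2 are lower in the tumour of every mouse, while Col1a1 moves far less.

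Fgf9 (ENSMUSG00000021974, GRCm38 chromosome 14, 58070547 to 58112720, plus strand) was at 0.276, 0.803 and 0.439 CPM in the adjacent tissue of mice 102, 217 and 224. The tumours held 0.412, 15.4 and 6.85 CPM. The tumours of mice 217 and 224 were high, and that of mouse 102 lay within the adjacent range, so the groups overlapped. Its log2 fold change was 3.9 ± 1.17 (95% interval 1.19 to 6.6) and did not pass (adjusted p = 0.0785). It passed without the tumour of mouse 102 (4.43 ± 0.7, adjusted p = 0.0346) and with DESeq2 on all 6 libraries (3.91, adjusted p = 0.000617). Without the tumour of mouse 217, the highest, it was 2.76 ± 1.11 (adjusted p = 0.191), and with limma-voom 2.89 ± 1.66. Over the 13 alternatives the adjusted p ran from 0.000617 to 0.343, the latter with limma-voom.

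The mesothelial markers, a list of 5 that covers a main source of Fgf9 in the lung, summed to 32.0 to 81.0 CPM in adjacent tissue and 7.87 to 14.8 CPM in tumours. Among them, 3 passed, all lower, and 1 to 4 did so without 1 library. Of all genes tested, 7.18% passed as lower. Wt1 was at 0 in 2 of the tumours. Within the tumours the sum was 7.87 CPM in mouse 102, 14.8 in mouse 217 and 9.72 in mouse 224, the same order as Fgf9. Within the adjacent tissue it was 32.0, 61.4 and 81.0 CPM in those mice, an order that Fgf9 (0.276, 0.803 and 0.439 CPM) did not follow. Per 1000 CPM of mesothelial markers Fgf9 was 5.42 to 13.1 in adjacent tissue and 52.3, 1043.1 and 705 in the tumours of mice 102, 217 and 224. The part of mesothelial content was not tested beyond these ratios. Pan-epithelial markers summed to 1132.1 to 1275.4 CPM in adjacent tissue and 2573.5 to 2729.9 CPM in tumours. Per 1000 CPM of these, Fgf9 was 0.243 to 0.629 in adjacent tissue, and its lowest, median and highest values in tumours were 0.151, 2.66 and 5.81. The part of epithelial content in this difference was not tested further.

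The other 3 ligands gave no call. Fgf1, which binds all FGF receptors and has no signal peptide, was at 183, 113 and 87.9 CPM in the adjacent tissue of mice 102, 217 and 224 and at 125, 191 and 176 CPM in the tumours. It was higher in the tumour of mice 217 and 224 and lower in that of mouse 102 (log2 fold change 0.36 ± 0.37, adjusted p = 0.642). Fgf18 was at 3.96, 3.4 and 3.82 CPM in the adjacent tissue, and the tumours held 4.8, 4.09 and 7.81 CPM. Its groups did not overlap, but the difference was small against the spread (0.58 ± 0.44, adjusted p = 0.504).

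Fgf2, or basic FGF, split by mouse rather than by tissue. It was at 39.9 CPM in the adjacent tissue and 42.4 CPM in the tumour of mouse 102, and at 15.6 and 36.1 CPM in mouse 224. In mouse 217 the adjacent tissue held 0.0401 CPM, from 3 counts, and the tumour 1.58 CPM, from 99 counts. Within mice the tumour was higher by 1.06-fold, 39.3-fold and 2.32-fold in mice 102, 217 and 224. The log2 fold change was 0.53 ± 1.61 (95% interval -3.2 to 4.26, adjusted p = 0.895). It was -0.05 ± 1.11 without the adjacent tissue of mouse 217 and -0.02 ± 1.93 without the tumour of mouse 102. Neither value shows a direction. Of the exonic bases of Fgf2, 9.437% overlap Nudt6 on the other strand, and the libraries do not mark strand. Nudt6 was at 2.26 to 2.97 CPM in 5 lung libraries and at 7.23 CPM in the tumour of mouse 217. The low values of Fgf2 lie in the same libraries that showed the negative trend with exon length, and the part of that trend was not tested.

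**Figure D3:**
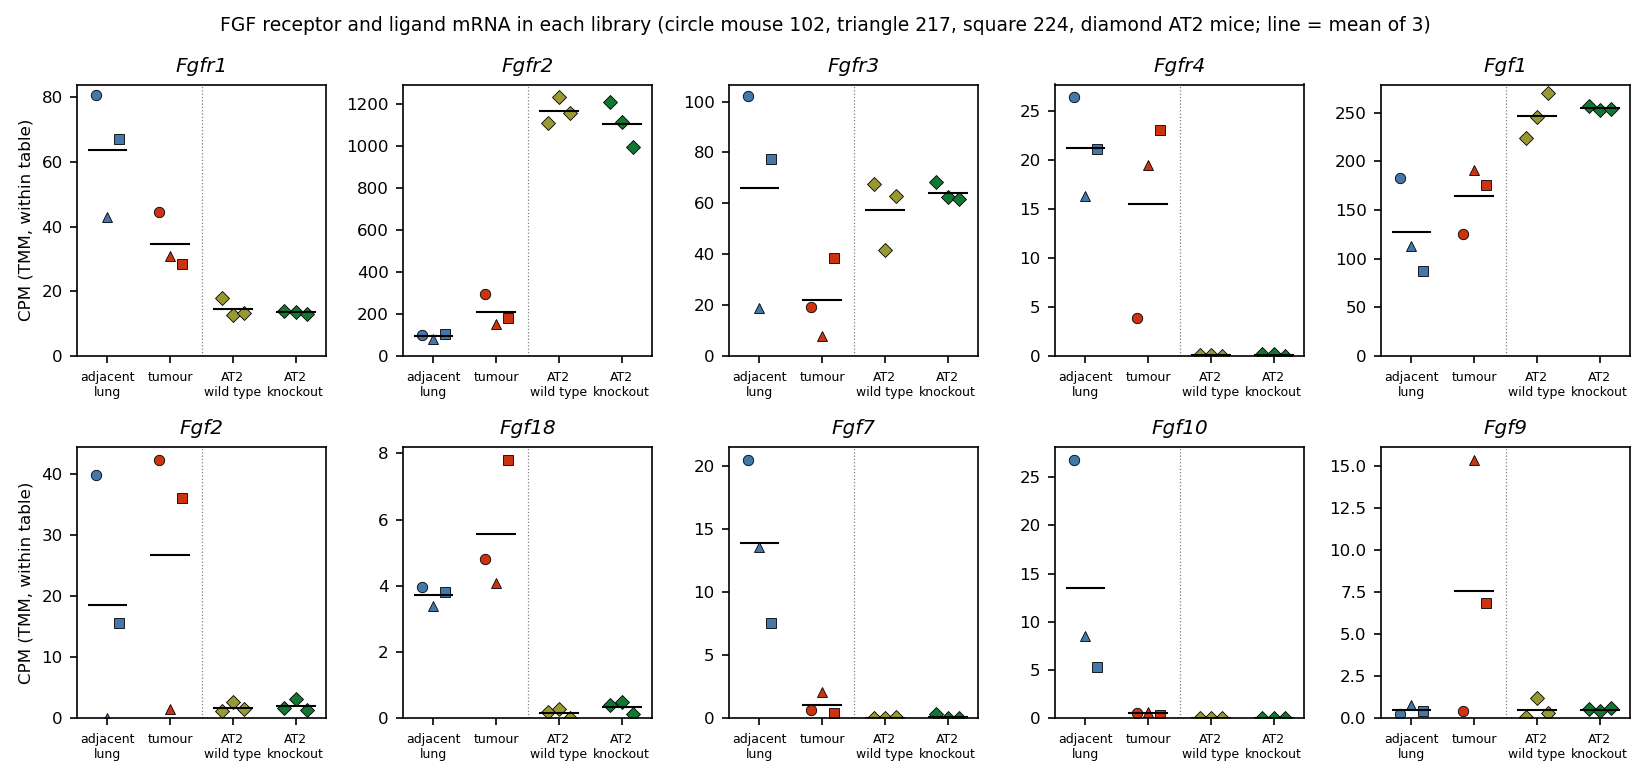
CPM of each member in every library (points, shaped by mouse in the lung groups) with the mean of 3 libraries as a line; the vertical axis starts at 0 and differs between panels. Fgf7 and Fgf10 are low in all tumours, Fgf2 is near 0 in both libraries of mouse 217, and Fgfr2 is highest in AT2 cells.

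Among the receptors, Fgfr2 was the one whose tumour values all lay above all adjacent values. Fgfr2 (ENSMUSG00000030849, GRCm38 chromosome 7, minus strand) was at 102, 79.5 and 103 CPM in the adjacent tissue of mice 102, 217 and 224 and at 295, 154 and 181 CPM in the tumours. It was 2.89-fold, 1.94-fold and 1.75-fold higher within the 3 mice. The log2 fold change was 1.14 ± 0.35 and did not pass (adjusted p = 0.0808). A fit with a block for each mouse, which uses the pairing of the tissues, gave 1.1 ± 0.21, and it passed (adjusted p = 0.0346). In that paired fit 14.9% of all genes passed, 5.57% higher and 9.34% lower. Of the members, Fgfr2 passed as higher and Fgf7, Fgf10 and Fgfr3 as lower.

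Pan-epithelial markers were higher in the same tumours, as given above for Fgf9. Per 1000 CPM of these markers, Fgfr2 was 62.3 to 90.3 in adjacent tissue and 58.2 to 108 in tumours. Those ranges overlap, so relative to this list no difference in Fgfr2 stood out of the spread. The ratio was higher in the tumour of mouse 102 and lower in those of mice 217 and 224. It depends on the list chosen. AT2 markers summed to 22563.7 to 42881.7 CPM in adjacent tissue and 78115.1 to 226306.1 CPM in tumours. The part of epithelial content in the difference of Fgfr2 was not tested further. In GENCODE M21, 3.04% of the exonic bases of Fgfr2 overlap exons of Ctbp2 on the same strand. The gene record of Fgfr2 there is long, from base 130162451 to 133123350, and runs across several neighbouring genes.

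Fgfr3, which limits growth in cartilage and is found in alveolar epithelium, went the other way. It was at 102, 18.9 and 77.3 CPM in the adjacent tissue of mice 102, 217 and 224 and at 19.4, 7.83 and 38.7 CPM in the tumours. The tumour was lower in each mouse, by 5.28-fold, 2.42-fold and 2.0-fold, but mouse 217 was low in both tissues and the groups overlapped. The log2 fold change of -1.59 ± 0.73 did not pass (adjusted p = 0.241). The paired fit gave -1.55 ± 0.33, and there it passed (adjusted p = 0.0422). Antisense exons of G630022F23Rik cover 13.942% of the exonic bases of Fgfr3, and their reads cannot be told apart without strand.

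Fgfr1, the main receptor of mesenchymal cells, was at 80.5, 43.0 and 67.1 CPM in the adjacent tissue and at 44.5, 31.0 and 28.5 CPM in the tumours of mice 102, 217 and 224. It was lower in the tumour of each mouse, by 1.81-fold, 1.39-fold and 2.36-fold, while the groups overlapped (log2 fold change -0.87 ± 0.35, adjusted p = 0.174). Per 1000 CPM of fibroblast markers it was 12.7 to 23.7 in adjacent tissue and 18.2 to 24.3 in tumours, so its ratio to that list overlapped where those of Fgf7 and Fgf10 did not.

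Fgfr4 was at 26.4, 16.3 and 21.1 CPM in adjacent tissue and at 3.85, 19.5 and 23.1 CPM in tumours of the same mice. The tumour of mouse 102 was low and the others lay within or near the adjacent range (log2 fold change -0.46 ± 0.61, adjusted p = 0.735).

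To compare receptors with each other, CPM was divided by the length of all exons of the gene in kilobases. In adjacent tissue Fgfr3 (9.25 CPM per kb), Fgfr2 (9.2), Fgfr1 (6.43) and Fgfr4 (6.01) followed each other with overlapping ranges. In tumours Fgfr2, at 20.3 CPM per kb, lay above the rest without overlap, and Fgfr4 (4.38), Fgfr1 (3.51) and Fgfr3 (3.07) overlapped. Fgfr2 made up 24.9% to 39.9% of the receptor transcripts per kb in adjacent tissue and 54.1% to 77.5% in tumours. In AT2 cells its share was 90.5% to 94.4%. The exon length of Fgfr2, 10328 bases, is that of the long gene record named above, so its value per kb may be a low estimate.

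**Figure D4:**
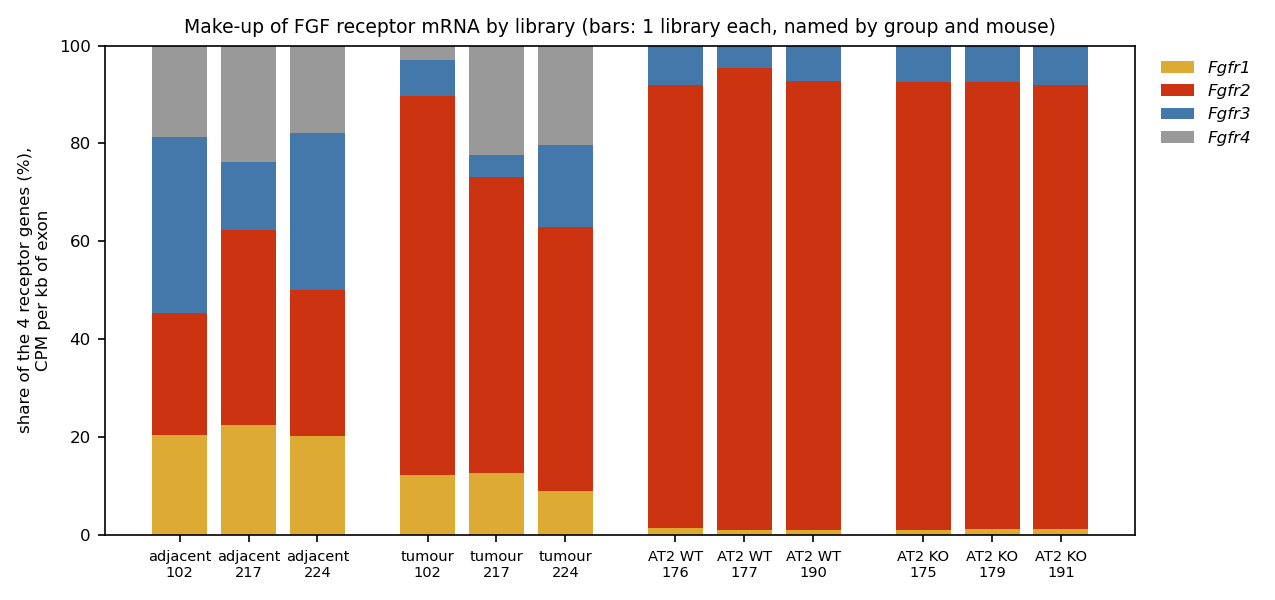
Share (%) of each of the 4 receptor genes in their summed CPM per kb of exon, with 1 bar per library, named by group and mouse. Fgfr2 takes 24.9% to 39.9% of the adjacent bars, 54.1% to 77.5% of the tumour bars and over 90% of every AT2 bar.

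On the same scale Fgf1 led the ligands in all 4 groups, at 23.4 CPM per kb in adjacent tissue, 30.0 in tumours, 45.2 in wild-type AT2 cells and 46.6 in knockout AT2 cells, each without overlap with the next. In adjacent tissue Fgf7 (4.27), Fgf18 (3.14), Fgf10 (2.94) and Fgf2 (2.73) came after it with overlapping ranges, and Fgf9 (0.109) was last, its range overlapping that of Fgf2. In tumours the order was Fgf18 (4.69), Fgf2 (3.93), Fgf9 (1.62), Fgf7 (0.324) and Fgf10 (0.112), and every neighbour overlapped the next. The order of Fgf7 and Fgf10 against their direct neighbours is therefore not resolved in either tissue. Against more distant ligands it was. In tumours the ranges of Fgf7 (0.13 to 0.632) and Fgf10 (0.0634 to 0.152) lay below that of Fgf18 (3.45 to 6.58). In adjacent tissue the lowest values of Fgf7 (2.31) and Fgf10 (1.15) lay above the highest of Fgf9 (0.173).

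The second comparison asked whether AT2 cells of the knockout mice differed from wild-type cells at 6 months of age, a stage that the series' design text places before tumours form. Expression of FGF receptors and ligands in AT2 cells did not differ detectably between knockout and wild-type mice. Of the 10 members, 5 had enough counts to be tested, and none passed (adjusted p from 0.984 to 0.989). Among all 14053 genes tested with edgeR, 0.0% passed. In that comparison 347 genes had an unadjusted p under 0.05, and DESeq2 called 1 gene. Knockout libraries lay apart from wild-type libraries in 4.19% of genes as higher and 4.11% as lower, and in none of the 5 members.

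Fgfr2 was the most abundant member, with 1111.6, 1236.7 and 1158.1 CPM in the wild-type libraries 176, 177 and 190. The knockout libraries 175, 179 and 191 held 1210.6, 1114.2 and 999 CPM. The groups overlapped, and the 95% interval of the log2 fold change ran from -0.41 to 0.26. Fgf1 was at 224, 246 and 270 CPM in wild-type cells and 257, 253 and 254 CPM in knockout cells (interval -0.26 to 0.35). Fgfr3 was at 67.6, 41.8 and 62.7 CPM against 68.4, 62.5 and 61.7 CPM (interval -0.23 to 0.55). The low value was wild-type 177, and without it the log2 fold change of 0.16 turned to -0.02.

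Fgfr1 was low in AT2 cells, at 17.9, 12.6 and 13.4 CPM in the wild-type libraries and 13.8, 13.7 and 13.1 CPM in knockout cells (interval -0.52 to 0.29). Fgf2 was at 1.12, 2.64 and 1.49 CPM in the wild-type libraries and 1.64, 3.24 and 1.33 CPM in knockout cells (interval -0.77 to 1.26). Both genes changed sign when 1 library was left out, Fgfr1 without wild-type 176 (0.05) and Fgf2 without knockout 179 (-0.25).

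The other members were close to the detection limit in AT2 cells and were not tested. Fgf10 had 0 counts in all 6 libraries, which allows up to 0.0578 CPM in either group (3 counts over the group, for counting error only). Fgf7 had 0, 0 and 2 counts in wild-type 176, 177 and 190 and 6, 0 and 1 counts in knockout 175, 179 and 191. Fgfr4 had 2, 2 and 0 counts against 3, 3 and 0, and Fgf18 had 3, 5 and 0 counts against 7, 9 and 2. Fgf9 had 1, 21 and 5 counts against 9, 8 and 10. The sorted epithelial cells thus carried the receptor of Fgf7 and Fgf10 at a high level and at most a few counts of these ligands.

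Levels in the AT2 table were normalised separately from the lung table and are set beside them as a description. Fgfr2 averaged 1168.8 CPM in wild-type and 1107.9 CPM in knockout AT2 cells, against 95.1 CPM in adjacent lung. Per 1000 CPM of pan-epithelial markers Fgfr2 was 552 to 776 over the AT2 libraries. That lay above the 58.2 to 108 of the tumours and the 62.3 to 90.3 of adjacent tissue. The marker sum itself differed, at 1552.6 to 2012.7 CPM in AT2 libraries, between those of adjacent tissue and tumours.

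The remaining genes of the pathway were described from lists. Of 12 other FGF ligands (Fgf3, Fgf4, Fgf5, Fgf6, Fgf8, Fgf15, Fgf16, Fgf17, Fgf20, Fgf21, Fgf22 and Fgf23), none had enough counts to be tested in either table. The highest of them in tumours was Fgf17, at 0.071, 0.716 and 0.51 CPM in mice 102, 217 and 224, with 0, 0.0535 and 0.106 CPM in adjacent tissue. Of 4 intracellular FGF homologous factors, which are not secreted, 3 were tested and none passed. Fgf11 was the highest of these, at 13.7, 12.3 and 12.2 CPM in adjacent tissue, with 15.1, 10.2 and 9.95 CPM in the tumours.

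Over all genes tested, 7.18% passed as lower and 2.86% as higher in tumours. Of 8 co-receptors and ligand carriers, all tested, 1 passed and fell in tumours. It was Flrt2, a membrane protein that binds FGF receptors, at 21.9, 3.84 and 7.12 CPM in adjacent tissue, against 1.82, 1.07 and 0.816 CPM in the tumours (log2 fold change -3.15 ± 0.75, adjusted p = 0.0382). This call held in 1 of 6 fits that each left out 1 library (adjusted p up to 0.118). The list's median log2 fold change was -0.31. Of 10 signal adaptors 1 rose, Shc1, from 95.2, 80.4 and 101 CPM to 264, 202 and 217 CPM (1.31 ± 0.28, adjusted p = 0.0304), and it too held in 1 of those 6 fits. The list's median was 0.13, and Frs2, the docking protein of FGF receptors, was at 0.1 ± 0.41 on the log2 scale.

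Among the feedback inhibitors and ETS targets of the FGF and RAS pathway, 7 of 14 rose in tumours. They include the Sprouty and Spred proteins and the MAP kinase phosphatases (Dusp), which damp the pathway, and the factors Etv1, Etv4 and Etv5. The other 7 did not pass, among them Etv5 (0.61), Spry4 (-0.11) and Il17rd (-0.83). The list's median log2 fold change was 1.39, against 0.04 over all genes, of which 2.86% rose. In the same tumours the median was 1.16 over 7 pan-epithelial markers and 1.54 over 10 AT2 markers, and their part in this list's values was not tested. Etv4 went from 0.526, 1.3 and 1.06 CPM in the adjacent tissue of mice 102, 217 and 224 to 33.7, 75.0 and 89.1 CPM in the tumours (6.1 ± 0.59, adjusted p = 0.00592). Spred1 went from 111, 65.9 and 62.4 CPM to 398, 244 and 314 CPM (2.0 ± 0.37, adjusted p = 0.0193). Spry2 went from 33.1, 23.5 and 22.2 CPM to 63.7, 126 and 108 CPM (1.92 ± 0.36, adjusted p = 0.0205). In all 3 genes every tumour lay above every adjacent library.

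These genes also respond to RAS signals that do not come from an FGF receptor. Leaving out any 1 of the 6 lung libraries left 1 to 5 of the 14 past the threshold, and Etv4 passed in all 6 of those fits. In the paired fit 10 of the 14 passed. In AT2 cells 12 of the 14 were tested and none passed between knockout and wild type. Etv5, an AT2 marker as well as an FGF target, was at 974 to 1424.5 CPM in the AT2 libraries and at 135 to 238 CPM in tumours, while Etv4 was at 0.176 to 0.784 CPM in AT2 cells. Etv4 was thus near 0 in adjacent tissue and in AT2 cells; the difference between tumours and AT2 cells was not tested.

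**Figure D5:**
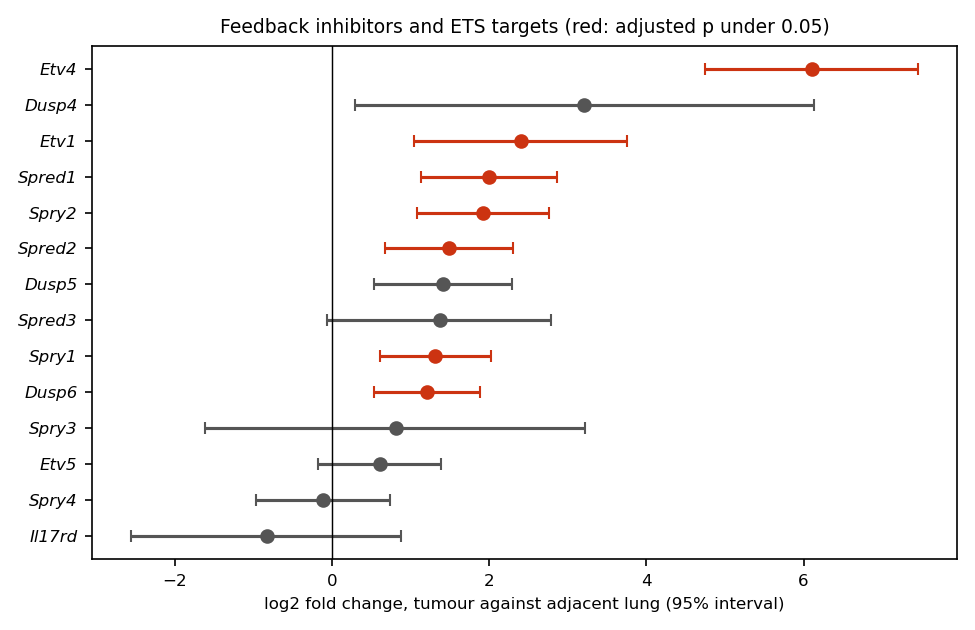
Log2 fold change, tumour against adjacent lung, of 14 feedback inhibitors and ETS targets with 95% intervals; red marks an adjusted p under 0.05. The 7 red genes are all higher in tumours, led by Etv4 at 6.1.

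Heparan sulphate holds FGFs at the receptor. Of 11 proteoglycans that carry it, 3 rose and 0 fell (median log2 fold change -0.04), where 2.86% of all genes tested rose and 7.18% fell. Col18a1, a basement membrane collagen, went from 89.6, 63.7 and 64.9 CPM to 305, 649 and 771 CPM (2.98 ± 0.44, adjusted p = 0.0111). The syndecans Sdc4 (1.89 ± 0.32, adjusted p = 0.0156) and Sdc1 (1.67 ± 0.34, adjusted p = 0.025) also rose. Sdc4 averaged 191 CPM in adjacent tissue and 707 CPM in tumours, and Sdc1 262 and 836 CPM. In AT2 cells, normalised separately, wild-type and knockout averages were 585 and 495 CPM for Sdc4 and 901 and 856 CPM for Sdc1. For Col18a1 they were 25.0 and 22.5 CPM. The part of AT2 or other epithelial content in these rises was not tested. Leaving out 1 library left 0 to 3 of these calls. Of 15 enzymes that make and edit heparan sulphate 1 rose, the 3-O-sulphotransferase Hs3st3a1, from 4.8, 1.82 and 3.03 CPM to 30.8, 21.5 and 9.18 CPM (2.67 ± 0.58, adjusted p = 0.0303). It passed in 1 of the 6 fits without 1 library.

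Of 9 genes of the distal tip of the embryonic lung, where Fgf10 acts, 6 rose in tumours and 0 fell (median log2 fold change 2.66). Over all genes tested, 2.86% rose and 7.18% fell, with a median of 0.04. Nkx2-1 (1.43), Foxp2 (1.6) and Ptch1 (-0.89) did not pass. Sox9, which marks the progenitors of the tip, went from 0.651, 0.669 and 1.28 CPM in adjacent tissue to 45.4, 67.7 and 125 CPM in tumours. Shh, the ligand by which tip epithelium signals to mesenchyme, went from 14.7, 15.6 and 22.8 CPM to 76.8, 128 and 147 CPM (2.73 ± 0.37, adjusted p = 0.0092). Bmp4 went from 53.0, 57.6 and 44.4 CPM to 202, 487 and 289 CPM (2.66 ± 0.41, adjusted p = 0.0115). Leaving out 1 library left 2 to 5 of the 6 calls, and Sox9 and Shh passed in every one of those fits. Some of these genes are also expressed in AT2 cells. Wild-type and knockout averages there were 275 and 233 CPM for Id2, 93.4 and 93.6 CPM for Bmp4 and 19.7 and 23.1 CPM for Shh. Mycn averaged 0.192 and 0.544 CPM, and Sox9 and Hmga2 were at 0. The part of AT2 or other epithelial content in this list's values was not tested. Fgf10 was therefore low in the same tumours in which Sox9, Shh and Bmp4 were high.

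The genes whose log2 CPM ran most like that of Fgf10 over the 6 lung libraries, among 11869 with a mean of at least 5 CPM, were Akap12 (Pearson r = 0.9969), Fli1 (0.9967) and Cav2 (0.996). All 3 averaged less in tumours than in adjacent tissue, at 8.67 against 153 CPM for Akap12, a kinase anchoring protein, 13.3 against 40.2 CPM for Fli1, an ETS factor of endothelium, and 48.5 against 253 CPM for Cav2, a caveolin. For Fgf9 they were Gsk3a (0.9967), Npw (0.9958) and Cdip1 (0.9953). These coefficients describe 6 libraries in 2 groups of the same 3 mice.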

How the data were processed

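Poly-A RNA from 12 libraries in 4 groups of 3 mice was sequenced. Counts of reads per gene, as whole numbers without normalisation, were deposited in 2 tables, 1 of lung and 1 of AT2 libraries. The submitters' processing notes list alignment to GRCm38 (mm10) and name HISAT2, StringTie 1.3.3b, FastQC, Trimmomatic 0.39 and DESeq2; how reads were counted, and on which annotation, is not given in the sources used here. The library kit named in the labels' protocols does not mark strand.

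Genes were named from GENCODE M21, whose exon unions gave the lengths. Each table was tested separately with edgeR 4.0.16 in R 4.3.3 (quasi-likelihood test, its filter on low counts, TMM scaling, group as the only term, Benjamini-Hochberg adjustment), checked on simulated counts. Alternatives were DESeq2 1.42.0, limma-voom (limma 3.58.1), other scalings, no filter, leaving out each library or mouse 217, and the mouse as a block. The members, lists, tests and alternatives were chosen with earlier results of these data known. All 10 members were named; of other lists, up to 3 genes each way with the smallest adjusted p, or the highest member where none passed; and the 3 genes most correlated (log2 CPM, prior count 2) with Fgf9 and with Fgf10, which had the smallest p among higher and lower members. Other genes are named for context or after their values were seen.

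Mouse numbers pair the lung tissues: they mark the same animal, and deviations from the group means correlated at 0.273 (102), 0.459 (217) and 0.366 (224). The AT2 mice are separate animals. RefSeq upstream windows were on file for 8 of the 10 members.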

Additional observations from a re-analysis of the deposited data

How the results depend on the processing

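Over all genes, 2007 passed in tumour against adjacent lung, 3718 with DESeq2, 847 without both libraries of mouse 217, and 598 to 1854 without 1 library. With the mouse as a replicate block 2980 passed. Of the members 2 passed, both lower, and none higher. With the replicate block 4 passed, 1 of them higher (Fgfr2) and 3 lower, and DESeq2 called 1 higher (Fgf9). Without both libraries of mouse 217, 1 member passed, and it was lower (Fgf7). Without 1 library 1 to 2 members passed, of which 0 to 1 higher and 0 to 2 lower. Fgf2 had a log2 fold change of -0.05 without the adjacent library of mouse 217 and of -0.02 without the tumour of mouse 102, in a range of -0.05 to 1.81 without 1 library. In AT2 cells 0 genes passed, 17 with no filter on low counts, 1 with DESeq2, and 0 to 1 without 1 library. There, 4 members changed sign without 1 library: Fgfr1 (log2 fold change -0.21 to 0.05) and Fgf1 (-0.02 to 0.11) without wild-type 176, Fgfr3 (-0.02 to 0.3) without wild-type 177 and Fgf2 (-0.25 to 0.66) without knockout 179. Fits without a library test fewer samples; the cause of the other shifts was not tested. The replicate block changed no member's call other than those of Fgfr2 and Fgfr3. In AT2 cells no paired analysis was possible because the groups share no mouse numbers. Groups of 3 and the low counts of Fgf7, Fgf9, Fgf10, Fgf18 and Fgfr4 in AT2 cells limit what can be detected there.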
